A study of Mus musculus with 16 samples.

Results

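The cells described here are the CD8+ T cells in which at least 1 transcript of Mki67 or Top2a was counted, in skin, lung, liver and draining lymph node, and they numbered 511 of 5727 cells (8.92%). They were chosen by that rule on the measured counts, so their levels of both genes describe the choice and are no finding, and the 5216 other cells have 0 counts of both by the same rule. All cells were Pmel T cells, which carry a transgenic T cell receptor for the melanocyte antigen gp100 and the marker Thy1.1, recovered as CD8+Thy1.1+ cells from C57BL/6 mice aged 16 weeks. Every mouse had melanoma-associated vitiligo, in which immune cells destroy melanocytes, and was sampled 45 days after its tumor was removed by surgery, so no untreated or vitiligo-free group is part of the comparison. All of these cells share that receptor, and the host's own CD8+ T cells are not part of the data. Cells were released from lymph node by mechanical means, from minced skin and mashed liver with collagenase IV plus DNase, and from lung with Liberase plus DNase. Percoll gradients followed for lung and for liver.

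Mki67 encodes Ki-67, a protein that coats mitotic chromosomes, and Top2a encodes topoisomerase II alpha, which untangles DNA before and during chromosome separation. Both are transcribed mainly from S phase to mitosis, so their transcripts are used to find dividing cells, but they can be missed in a shallow cell and a stray transcript can mark a cell that does not divide. Genes of DNA replication, such as the MCM helicase subunits, peak at the G1/S border under E2F factors, whereas genes of mitosis, such as Ccnb2, peak later through promoters that carry CHR and CCAAT elements bound by the DREAM and MuvB complexes and NF-Y. Resident memory CD8+ T cells are mostly quiescent, and a fraction can renew in place.

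Promoters of both selecting genes and of 1 mitotic and 1 replication gene are shown because these 2 waves of transcription order the results. The sequences are from RefSeq on GRCm38.p6, 250 bases before to 50 bases after the annotated start, on the gene's strand. Capitals mark every match, on either strand, to the CHR (TTTGAA, or TTCAAA on the other strand), to the CCAAT box (CCAAT or ATTGG) and to E2F sites (TTTCCCGC, TTTCGCGC, TTTGCCGC and TTTGGCGC or their reverse complements).
Mki67 (chr7:135716330-135716629, minus strand): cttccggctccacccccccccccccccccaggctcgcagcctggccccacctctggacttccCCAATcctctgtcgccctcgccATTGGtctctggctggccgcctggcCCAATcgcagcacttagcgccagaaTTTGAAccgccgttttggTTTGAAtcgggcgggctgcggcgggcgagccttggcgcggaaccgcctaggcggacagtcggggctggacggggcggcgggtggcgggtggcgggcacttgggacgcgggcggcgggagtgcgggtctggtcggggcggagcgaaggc
Top2a (chr11:99024140-99024439, minus strand): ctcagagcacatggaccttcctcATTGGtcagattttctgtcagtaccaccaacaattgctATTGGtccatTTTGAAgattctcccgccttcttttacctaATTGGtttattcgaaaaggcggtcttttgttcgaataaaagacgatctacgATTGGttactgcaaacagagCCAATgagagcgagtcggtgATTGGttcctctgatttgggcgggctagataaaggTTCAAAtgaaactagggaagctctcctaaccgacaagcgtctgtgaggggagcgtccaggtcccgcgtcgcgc
Ccnb2 (chr9:70421505-70421804, minus strand): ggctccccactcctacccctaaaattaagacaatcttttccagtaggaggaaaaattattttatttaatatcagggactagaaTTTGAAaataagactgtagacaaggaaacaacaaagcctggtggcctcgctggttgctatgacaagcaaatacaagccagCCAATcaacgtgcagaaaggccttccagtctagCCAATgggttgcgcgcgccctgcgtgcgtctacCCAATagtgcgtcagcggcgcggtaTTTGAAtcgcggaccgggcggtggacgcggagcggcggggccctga
Mcm5 (chr8:75109259-75109558, plus strand): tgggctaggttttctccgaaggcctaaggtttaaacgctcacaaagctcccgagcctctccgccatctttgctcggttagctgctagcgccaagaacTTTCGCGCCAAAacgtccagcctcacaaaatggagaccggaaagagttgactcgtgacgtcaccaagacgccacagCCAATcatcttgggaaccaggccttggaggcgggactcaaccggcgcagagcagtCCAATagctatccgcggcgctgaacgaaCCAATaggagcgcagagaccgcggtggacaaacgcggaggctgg

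The Mki67 promoter held 2 CHR matches and 3 CCAAT boxes, that of Top2a held 2 and 6, and that of Ccnb2, the cyclin B2 gene, held 2 and 3. The promoter of Mcm5, a subunit of the replicative helicase, held no CHR match, 3 CCAAT boxes and 2 overlapping E2F matches. Among all 32851 promoters, 17.9% held a CHR match, 37.4% a CCAAT box and 2.26% an E2F match. Of the 28 mitotic genes summed below as core genes, 23 had a promoter in the set, of which 18 held a CHR match, 19 a CCAAT box and 1, Cdk1, an E2F match. Of the 19 replication genes, 16 had a promoter, of which 2 held a CHR match, 12 a CCAAT box and 9 an E2F match. A match describes the letters of this window and does not show that a factor binds there.

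Each tissue gave 1 library, pooled from 4 sequencing lanes, so no value has a biological replicate and no difference was tested. Intervals in brackets are exact 95% intervals that cover counting error only, and a ratio is the pooled level in 1 set of cells over that in the other cells of the same tissue, in counts per 1000000 counts (CPM). Median counts per cell were 2968 in the skin, 3553 in the lung, 4056 in the liver and 2865 in the lymph node for the Mki67 or Top2a positive cells, and 2491, 2890, 3049 and 2634 for the other cells, so the selected cells were deeper in all 4 tissues. Deeper cells are more likely to show at least 1 count, and the part of depth in any difference from the other cells was not tested beyond the depth-weighted values given below. Scrublet marked 62 cells as doublets, 10 of them Mki67 or Top2a positive, and 19 barcodes occurred in more than 1 tissue, covering 38 cells of which 5 were positive. Skin and lymph node columns have a 2 in their names, which the lung and liver columns lack, so any difference in library preparation that it marks cannot be told apart from tissue.

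Both cell sets were T cells. All 6 CD8 T cell markers had counts in every tissue, with summed levels of 6971 to 8309 CPM in the positive cells and 7400 to 9095 CPM in the other cells. The 4 myeloid markers used summed to 211 to 315 CPM in the positive cells and 241 to 287 CPM in the other cells. The 5 B cell markers summed to 7.19 to 33.9 CPM in the positive cells and 10.6 to 40.6 CPM in the other cells. Markers of airway epithelium, endothelium, keratinocytes and gamma delta T cells stayed at or below 64.7 CPM in the positive cells and 83.1 CPM in the other cells. The markers listed for CD4+ T cells, NK cells, dendritic cells, hepatocytes, fibroblasts and melanocytes are not among the genes counted, so these cell types could not be checked. Some listed markers of myeloid cells, airway epithelium, endothelium, keratinocytes and gamma delta T cells were missing as well.

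By their other transcripts, the label of cycling cells held for 133 of the 511 selected cells. Mki67 stood at 182 CPM in the selected cells of skin, 102 in the lung, 126 in the liver and 120 in the lymph node, counted in 62, 58, 16 and 39 cells. Top2a stood at 527, 284, 339 and 343 CPM, counted in 129, 150, 31 and 100 cells in the same order. Of the 511 cells, 380 had exactly 1 count of the pair of genes, 45 had 2 and 86 had 3 or more, up to 15 in 1 cell. A set of 47 core cell cycle genes without Mki67 and Top2a (19 of replication, 28 of mitosis), chosen after these data had been seen, was summed per cell. At least 10 core counts were found in 35 of the 380 cells with 1 count, 18 of the 45 with 2 and 80 of the 86 with 3 or more. These 133 cells are called core-high and the 378 others core-low. The limit of 10 was also set after seeing the data, with 16 positive cells at 5 to 9 core counts and 12 at 10 to 14. It cuts a range and does not define a cell type.

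Pooled over the tissues, the core-low cells stood near the level of cells without Mki67 and Top2a in cell cycle transcripts, but in skin they stood higher. Pooled core genes stood at 8190 CPM in core-high cells, 442 CPM in core-low cells and 458 CPM in the other cells. The median cell had 52 core counts among core-high cells and 1 among both core-low and other cells, and 130 of the 378 core-low cells had none. Core-high cells were also deep, with a median of 6815 counts per cell, against 2819 in core-low cells and 2689 in the other cells. When each cell was thinned to 1886 counts, core-high cells still averaged 17.8 core counts in the skin, 12.9 in the lung, 18.8 in the liver and 15 in the lymph node, against 0.91, 0.82, 0.77 and 0.80 in the other cells. Core-low cells are below 10 core counts by definition, whereas the other cells include 65 with at least 10, of which 43 were from lung, 8 each from skin and liver and 6 from lymph node. Core-high and core-low cells both had a median of 0 counts of B cell markers, and their median CD8 T cell marker counts were 42 and 23. Myeloid markers had a median of 2 counts in core-high cells, 0.5 in core-low cells and 1 in the other cells, with a count in 83.5%, 50% and 51.7% of them. Cst3, the most abundant of these, stood at 317, 282, 304 and 237 CPM in core-high cells of skin, lung, liver and lymph node, against 259, 237, 244 and 226 CPM in the other cells, and its part in the results was not tested. Csf1r, a defining receptor gene of macrophages, had 0 counts in the positive and in the other cells of every tissue.

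**Figure D1:**
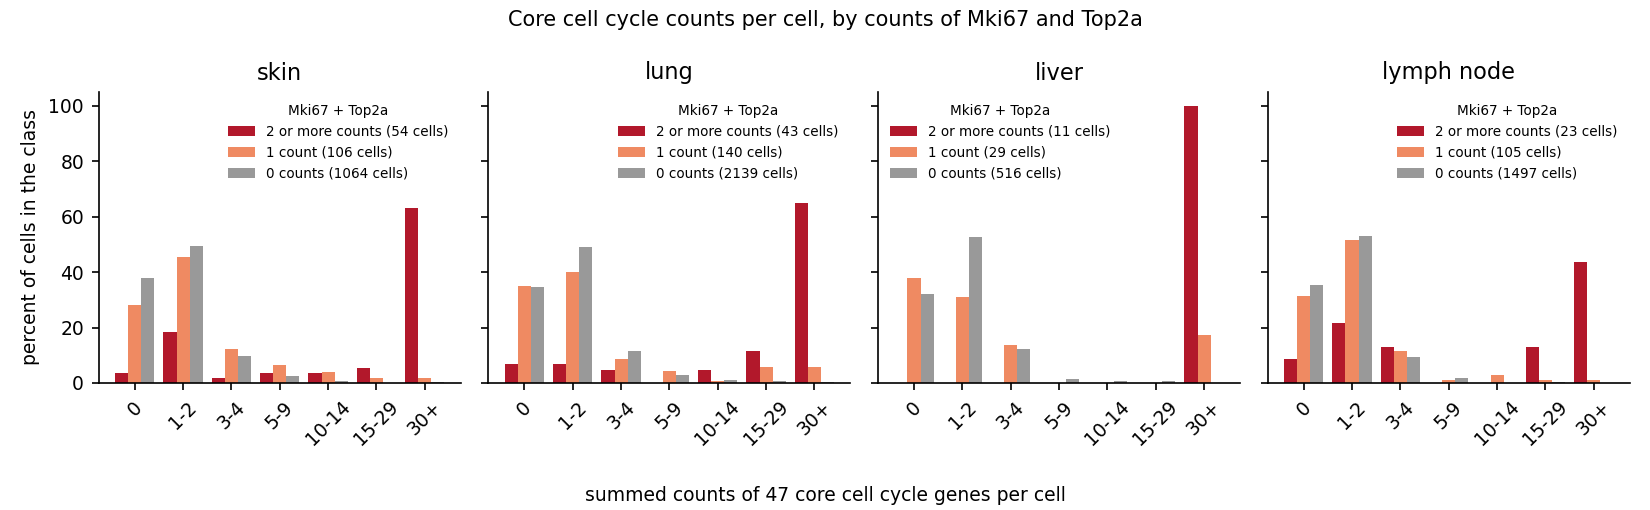
Percent of cells (y axis) by summed counts of 47 core cell cycle genes per cell (x axis) for cells with 2 or more, 1 or 0 counts of Mki67 and Top2a, by tissue. Cells with 2 or more counts pile up at 30 or more core counts, whereas cells with 1 count mostly lie at 0 to 2, as the cells with 0 counts do.

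The selected cells made up a larger share of the skin cells than of the cells of the other 3 tissues. Their share was 13.1% in skin [11.2 to 15.1, 160 of 1224 cells], 7.88% in lung [6.82 to 9.05, 183 of 2322], 7.19% in liver [5.19 to 9.67, 40 of 556] and 7.88% in lymph node [6.61 to 9.29, 128 of 1625]. The interval of skin lay above those of the other tissues, which overlapped each other. At 1886 counts per cell the share was 10.2% in the skin, 4.78% in the lung, 5.29% in the liver and 5.42% in the lymph node, and before thinning the same cells gave 13.5%, 8.49%, 7.56% and 7.97%. Cells under that depth could not be thinned and were not counted, 141 of them in the skin, 273 in the lung, 27 in the liver and 131 in the lymph node. No cell type that should lack Mki67 and Top2a is among these cells. Transcripts of other cell types were counted at the same depth as a rough guide to stray RNA, whose rate may differ between genes. Lyz2, a myeloid gene, had a count in 4.60% of positive and 5.07% of other lung cells and in 2.52% and 1.02% in lymph node. It had none in skin or liver. Igkc, a B cell gene, had a count in 1.15% and 1.71% of these cells in lung and in 1.68% and 1.67% in lymph node. Trdc, a gamma delta T cell gene, had a count in 8.22% of positive and 6.51% of other skin cells, and in 7.56% and 8.36% in lymph node. Cst3, another gene of the myeloid list, had a count in 33.6% to 42.5% of positive and 34.7% to 38.4% of other cells across the tissues. Whether its counts are stray or come from the T cells themselves was not tested, so it sets no level of stray RNA. The lung share of positive cells was near the share with Lyz2 in lung. Equal shares of different genes cannot show how much of the lung share is stray RNA, which was not tested. The skin share lay above those of Lyz2, Igkc and Trdc in skin. These genes need not share the stray rate of Mki67 or Top2a, and the part of stray RNA in the skin share was not tested.

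Stricter rules kept skin highest and moved the order of the other tissues. With at least 2 counts of the pair, the share was 4.41% in the skin, 1.85% in the lung, 1.98% in the liver and 1.42% in the lymph node. Both genes were counted in 2.53% of skin, 1.08% of lung, 1.26% of liver and 0.677% of lymph node cells. Core-high cells made up 3.84% in skin [2.83 to 5.07, 47 cells], 2.24% in lung [1.68 to 2.93, 52 cells], 2.88% in liver [1.65 to 4.63, 16 cells] and 1.11% in lymph node [0.66 to 1.74, 18 cells]. By this rule the intervals of skin and lymph node did not overlap, those of skin and lung met at their ends, and lung and liver overlapped widely. Counting any cell with at least 10 core counts, whether or not Mki67 or Top2a was seen, gave 4.49% in the skin, 4.09% in the lung, 4.32% in the liver and 1.48% in the lymph node. Thinned to 1886 counts per cell, cells with at least 5 core counts made up 5.82% in skin [4.499 to 7.38], 3.56% in lung [2.80 to 4.46], 3.59% in liver [2.18 to 5.55] and 1.47% in lymph node [0.93 to 2.22]. At least 3 core counts at that depth gave 12.4%, 8.10%, 7.37% and 6.56% in the same order. These limits on core counts were chosen after seeing the data. Skin was highest and lymph node lowest by each of them, and skin stood within 1 percentage point of lung and liver only in the unthinned count.

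**Figure D2:**
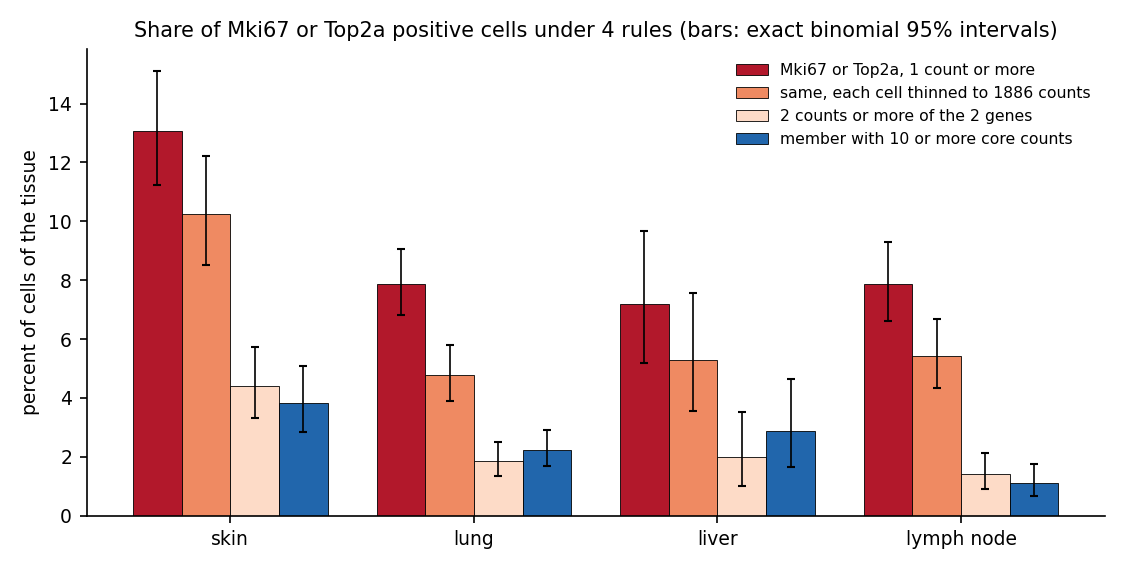
Share of the cells of each tissue (y axis, percent) under 4 rules, with exact binomial 95% intervals as error bars (member: Mki67 or Top2a positive cell). Skin is highest under each of the 4 rules drawn, at 13.1% for 1 count or more and 3.84% for positive cells with 10 or more core counts.

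Replication and mitotic genes were both many-fold higher in core-high cells in every tissue. These genes were chosen as cell cycle genes, so their size describes the cells that the core counts selected. Cdk1, the mitotic kinase, stood at 288 CPM in core-high skin cells, 187 in the lung, 335 in the liver and 171 in the lymph node, against 4.75, 6.64, 6.39 and 6.56 CPM in the other cells. Ccnb2 stood at 447, 267, 382 and 189 CPM in core-high cells of skin, lung, liver and lymph node, against 3.29, 21.6, 11 and 4.86 CPM in the other cells. Mcm5 stood at 199, 247, 156 and 313 CPM in core-high cells of the 4 tissues in the same order, against 20.5, 16.3, 17.4 and 14.1 CPM in the other cells. Stmn1, which encodes the microtubule regulator stathmin and was not among the core genes, had a ratio of 44.0 in the skin, 19.6 in the lung, 51.4 in the liver and 79.8 in the lymph node in core-high cells. In core-low cells its ratio was 1.47 [1.05 to 2.01] in skin, 0.80 [0.54 to 1.13] in lung, 0.26 [0.01 to 1.49] in liver and 0.61 [0.22 to 1.36] in lymph node. At 1886 counts per cell, 94.2% to 100% of core-high cells in each tissue had a Stmn1 count, against 4.22% to 12.2% of the other cells. Hmgb2, a chromatin protein gene, had ratios of 8.67, 6.01, 10.5 and 7.84 in core-high cells of skin, lung, liver and lymph node.

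The balance of replication and mitotic transcripts in core-high cells was lower on the mitotic side in lymph node by pooled counts, whereas the shares of cells overlapped. Mitotic core genes outnumbered replication core genes in counts in 20 of 47 core-high cells in skin (42.6% [28.3 to 57.8]), 18 of 52 in lung (34.6% [22.0 to 49.1]), 10 of 16 in liver (62.5% [35.4 to 84.8]) and 5 of 18 in lymph node (27.8% [9.69 to 53.5]). All 4 intervals overlapped. Pooled mitotic core genes stood at 5991 CPM in the skin, 3776 in the lung, 5902 in the liver and 2833 in the lymph node, and pooled replication genes at 4143, 3154, 3153 and 4547 CPM. Mitotic genes made up 59.1% of the pooled core counts in skin [57.2 to 61.1], 54.5% in lung [52.6 to 56.4], 65.2% in liver [62.4 to 67.9] and 38.4% in lymph node [35.0 to 41.9]. These intervals treat the counts of a cell as independent, and without the cell with most core counts the shares were 59.2%, 52.2%, 61.8% and 35.9%, with skin and liver overlapping. Both selecting genes are themselves transcribed mainly from S phase to mitosis, so the choice of the cells may favor late phases in each tissue. Its part in these shares was not tested.

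Outside the cell cycle list, 4439 genes with at least 20 CPM over all cells were compared. A gene was counted as higher or lower in a tissue at a ratio of 1.5 or more either way with an interval that leaves out 1. For all 511 selected cells, 269 genes (6.06%) were higher in the skin, 131 (2.95%) in the lung, 258 (5.81%) in the liver and 100 (2.25%) in the lymph node. Lower were 116 (2.61%), 145 (3.27%), 134 (3.02%) and 101 (2.28%) genes in the same order. Only 15 genes (0.338%) were higher in all 4 tissues, with an interval that leaves out 1 in at least 3, and only Ccl3 (0.0225%) was lower in this sense. Core-low cells alone gave no gene (0%) higher and none (0%) lower in all 4. In them 70 genes (1.58%) were higher in the skin, 66 (1.49%) in the lung, 86 (1.94%) in the liver and 64 (1.44%) in the lymph node, and 61 (1.37%), 61 (1.37%), 33 (0.743%) and 78 (1.76%) were lower. No p-value stands behind these counts, and the number of cells differs between tissues, so they are not compared between tissues.

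Core-high cells carried the shared pattern. In them 590 genes (13.3%) were higher in the skin, 315 (7.1%) in the lung, 358 (8.06%) in the liver and 373 (8.4%) in the lymph node, and 317 (7.14%), 447 (10.1%), 214 (4.82%) and 189 (4.26%) were lower. In all 4 tissues 122 genes (2.75%) were higher and 40 (0.901%) lower, and the 15 shared genes of the whole selection were all among the 122. Core-high cells were deeper than the other cells, so the other cells were also weighted to the same spread of depth, a comparison added after seeing the data. Their weighted mean depth was 5137 counts in the skin, 7432 in the lung, 7515 in the liver and 4792 in the lymph node, against 5238, 7701, 8027 and 5864 in core-high cells. Against these weighted cells 73 genes (1.64%) were higher in all 4 tissues and 3 (0.0676%) lower. Of the 122 higher genes 55 were in both sets (45.1% of the 122 and 75.3% of the 73), and of the 40 lower genes 2 were, Ccl4 and Tnfaip8l2 (named after its values were seen). The weighting sorted cells into bins by counts per cell. The deepest bin held 35 core-high cells in the skin, 34 in the lung, 13 in the liver and 14 in the lymph node. Other cells in that bin numbered 23, 81, 15 and 64 in the same order. The weighted values of skin and liver therefore rest largely on few other cells. The deep other cells that carry most weight include some of the 65 with at least 10 core counts.

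Pmf1 was the gene with the largest shared difference by the naming rule. It encodes a subunit of the MIS12 kinetochore complex, which joins chromosomes to spindle microtubules, although it was not on the cell cycle list. Its level was 252 CPM in core-high skin cells, 125 in the lung, 265 in the liver and 161 in the lymph node, against 21.2, 25, 16.3 and 27.7 CPM in the other cells. The 4 core-high values lay above all 4 values of the other cells. The ratios were 11.9 [8.17 to 17.3] in skin, 4.99 [3.57 to 6.85] in lung, 16.3 [9.58 to 27.9] in liver and 5.81 [3.27 to 9.72] in lymph node, and 5.91, 4.09, 8.99 and 5.03 against depth-weighted cells. In core-low cells the Pmf1 ratio was 1.07 in the skin, 0.54 in the lung, 0.79 in the liver and 0.58 in the lymph node, and each of these intervals held 1.

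Other shared higher genes named by the rule have roles in RNA processing, chromatin and the cytoskeleton, among others, and no list of these roles was compared. Lsm2, a subunit of the ring that binds U6 small nuclear RNA, had ratios of 5.98, 4.10, 5.62 and 2.37 in core-high cells of skin, lung, liver and lymph node. Snrpd1, an Sm protein of the spliceosome, had ratios of 2.84, 2.42, 3.92 and 3.09 in that order. Ppil1, a peptidyl-prolyl isomerase of the spliceosome, stood at 110 CPM in core-high cells of skin, 155 in the lung, 156 in the liver and 199 in the lymph node, against 24.5, 40.4, 21.5 and 37.2 CPM in the other cells. Ddx39, an RNA helicase of mRNA export, had ratios from 2.22 in lung to 4.43 in liver. The histone chaperone genes Rbbp4 and Nap1l1 had ratios from 2.31 in lymph node to 3.88 in liver and from 2.45 in liver to 3.18 in skin. Csrp1, which encodes a LIM domain protein of the actin cytoskeleton, had ratios of 4.93 [3.57 to 6.75], 5.02 [3.99 to 6.26], 5.39 [3.53 to 8.07] and 6.16 [3.94 to 9.27] in skin, lung, liver and lymph node, close to each other relative to their intervals. Prdx4, a peroxiredoxin of the endoplasmic reticulum, had ratios from 2.49 in lymph node to 3.96 in skin. Each gene of this paragraph except Prdx4 was also higher in all 4 tissues against depth-weighted cells, where the Prdx4 ratio was 1.41 in liver.

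Further genes were named in each tissue by the interval bound farthest from 1, and Dtymk, Rbbp7, Eri1 and Calm3 among them also belong to the 122. In skin Dtymk, the thymidylate kinase gene, stood at 240 CPM in core-high cells, against 33.3 CPM in the other cells, a ratio of 7.21 [5.10 to 10.1]. In lung Rbbp7, another histone chaperone gene, had a ratio of 3.53 [2.76 to 4.47] and Eri1, a histone mRNA exonuclease gene, 4.22 [2.80 to 6.21]. In liver Calm3, a calmodulin gene, stood at 506 CPM in core-high cells, against 145 CPM in the other cells, a ratio of 3.49 [2.61 to 4.60]. In lymph node Lgals1, the galectin 1 gene, stood at 9341 CPM in core-high cells, against 3458 CPM in the other cells. Its ratio of 2.70 [2.53 to 2.88] in lymph node stood beside 1.35 in skin, 1.26 in lung and 1.51 in liver, and was 1.59 against depth-weighted cells. Among lower genes, Txnip, a glucose-regulated inhibitor of thioredoxin, had a ratio of 0.29 [0.20 to 0.41] in lung. Tob1, an antiproliferative gene of the BTG/TOB family, had 0 counts in core-high cells of liver, which put it at least 3.16-fold lower at the floor of 3 counts. Tsc22d3, the glucocorticoid-induced leucine zipper gene, stood at 56.8 CPM in core-high cells of lymph node, against 258 CPM in the other cells.

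E2F matches were found in the promoters of 16 of the 102 shared higher genes that had a promoter (15.7%), against 4.84% of the 3429 compared genes with one. None of the 30 shared lower genes with a promoter held such a match. CHR matches, the element of the Mki67, Top2a and Ccnb2 promoters shown above, were found in 11 of the 102 (10.8%), against 14.2% of the compared genes. CCAAT boxes were found in 60 of the 102 (58.8%), against 42.5%. These shares are a description of letters and were not tested.

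**Figure D3:**
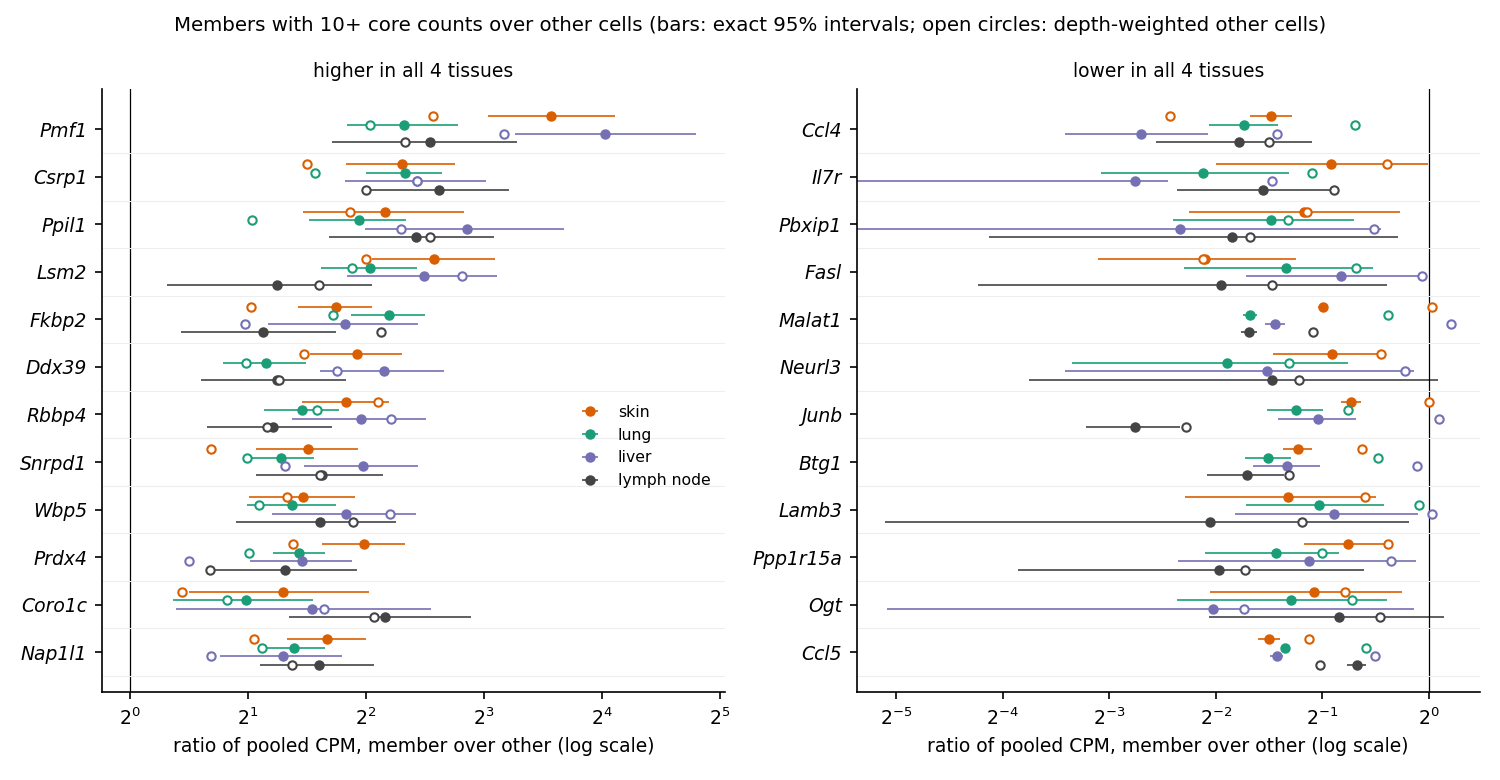
Ratio of pooled CPM, core-high positive cells over other cells of the same tissue (x axis, log scale), for the 12 named genes higher and the 12 lower in all 4 tissues (y axis), with exact 95% intervals. Open circles give the ratio to depth-weighted other cells. In liver they lie near 1 for Malat1, Junb and Btg1, whereas those of Pmf1 stay far above 1 in all 4 tissues. The liver point of Il7r is an upper bound, since core-high liver cells had 0 counts.

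Ccl4, Il7r, Pbxip1 and Fasl had the largest mean difference among the named lower genes. Ccl4, a chemokine made by activated T cells, stood at 914 CPM in core-high cells of skin, 207 in the lung, 156 in the liver and 161 in the lymph node, against 2548, 689, 1014 and 552 CPM in the other cells. Its ratios were 0.36 [0.31 to 0.41], 0.30 [0.24 to 0.37], 0.15 [0.09 to 0.24] and 0.29 [0.17 to 0.47] in skin, lung, liver and lymph node, and 0.19, 0.62, 0.37 and 0.35 against depth-weighted cells. Without the cell that held most Ccl4 counts in each tissue the ratios were 0.31, 0.22, 0.09 and 0.22. In core-low cells the Ccl4 ratio was 0.82 in the skin, 0.99 in the lung, 0.63 in the liver and 0.82 in the lymph node. Ccl5, another chemokine, stood at 3221 CPM in core-high skin cells, 17036 in the lung, 18149 in the liver and 9625 in the lymph node, against 9097, 43358, 48797 and 15363 CPM in the other cells. Its depth-weighted ratios were 0.46, 0.67, 0.71 and 0.49 in the same order.

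Il7r, the interleukin 7 receptor chain that sustains resting memory cells, had 10 counts in core-high cells of skin, 12 in the lung, 0 in the liver and 16 in the lymph node. These counts are 40.6, 30.0, 0 and 152 CPM, against 76.7, 130, 158 and 444 CPM in the other cells. The ratio was 0.53 [0.25 to 0.99] in skin, 0.23 [0.12 to 0.40] in lung and 0.34 [0.20 to 0.56] in lymph node, and the liver level was at least 6.76-fold lower against a floor of 3 counts over the group. Against depth-weighted cells the Il7r ratio was 0.76 [0.29 to 1.96] in skin, 0.47 [0.23 to 0.86] in lung and 0.54 [0.30 to 0.91] in lymph node. At 1886 counts per cell, Il7r was counted in 8.7% of core-high cells of skin, 1.92% in lung, none of 16 in liver and 17.6% in lymph node, against 13.4%, 22.2%, 26.8% and 53.4% of the other cells. Fasl, the ligand of the death receptor Fas, had ratios of 0.23, 0.40, 0.56 and 0.26 in skin, lung, liver and lymph node, and rested on 3 to 14 counts per tissue in core-high cells.

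Several lower genes had ratios closer to 1 against depth-weighted cells, and whether depth itself accounts for this was not tested. Malat1, a nuclear long noncoding RNA, had ratios of 0.50, 0.31, 0.37 and 0.31 in core-high cells of skin, lung, liver and lymph node, and 1.02, 0.77, 1.16 and 0.47 against depth-weighted cells. Junb, an AP-1 transcription factor gene, had ratios of 0.60, 0.42, 0.49 and 0.15, and 1, 0.59, 1.07 and 0.21 against depth-weighted cells. Btg1, an antiproliferative gene, had ratios of 0.43, 0.35, 0.40 and 0.31, and 0.65, 0.72, 0.93 and 0.40 against depth-weighted cells. Of these 3 genes, each was lowest in lymph node against depth-weighted cells. For the lower genes other than Ccl4 and Tnfaip8l2, the shared call therefore held only without the weighting.

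Among core-high cells, immediate early genes, which are induced within minutes of stimulation or tissue digestion, were lower in 7 of 28 genes in the skin, 16 in the lung, 13 in the liver and 11 in the lymph node, and higher in none, while 7.14%, 10.1%, 4.82% and 4.26% of all compared genes were lower. Their median log2 ratio was -0.46 in the skin, -0.92 in the lung, -0.89 in the liver and -1.30 in the lymph node, beside a median over all compared genes of 0.05, -0.10, -0.06 and -0.07. Against depth-weighted cells the median was 0.04, -0.32, -0.07 and -1.13, so the lymph node alone stayed beyond -1. The weighting matched depth least well there, at 4792 counts against 5864 in core-high cells, and the part of the remaining depth gap was not tested. There Dusp1, a MAP kinase phosphatase gene, stood at 28.4 CPM in core-high cells, against 259 CPM in the other cells, a ratio of 0.11 [0.02 to 0.32]. In skin Dusp1 stood at 1369 CPM in core-high cells and 1407 CPM in the other cells, and Nr4a1, a nuclear receptor gene induced by antigen receptor signals, at 1373 and 1390 CPM.

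Medians of the chemokine, interferon and central memory lists were below 0 in core-high cells of all 4 tissues, before and after weighting. The chemokine and receptor list had medians of -0.51, -0.84, -1.19 and -0.49 in core-high cells of skin, lung, liver and lymph node. Of its 13 genes, 5, 7, 4 and 3 were lower, beside 7.14%, 10.1%, 4.82% and 4.26% of all compared genes. None was higher, beside 13.3%, 7.1%, 8.06% and 8.4% of all compared genes. The depth-weighted medians of this list were -0.39, -0.28, -0.46 and -0.30. The interferon stimulated list had medians of -0.58, -0.68, -0.46 and -0.34. Of its 25 genes, 5, 11, 6 and 6 were lower and 1 was higher, in skin, beside the same shares of all compared genes. After weighting the medians of this list were -0.48, -0.56, -0.63 and -0.71, farther from 0 in liver and lymph node than before. In lymph node Ifit1 and Ifit3, which encode interferon-induced RNA-binding proteins, had 1 count each in core-high cells, with ratios of 0.06 [0.0015 to 0.33] and 0.06 [0.0015 to 0.32]. The central memory and stemness list had medians of -0.75, -0.54, -1.32 and -1.68 over 8 genes. Its depth-weighted medians were -0.25, -0.42, -0.63 and -1.35.

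The tissue residency list had medians of -0.44 in the skin, -0.64 in the lung, -0.68 in the liver and -0.56 in the lymph node, and -0.18, -0.27, 0.03 and -0.33 after weighting. Lower residency genes numbered 6, 8, 7 and 3 of 25, beside 7.14%, 10.1%, 4.82% and 4.26% of all compared genes. After weighting they numbered 6, 3, 4 and 2, beside 218, 182, 151 and 136 of all 4439 compared genes. The cytotoxic list had medians of -0.31, -0.17, -0.26 and -0.17, and -0.73, -0.14, -0.27 and -0.27 after weighting. With the weighting 10 of its 23 genes were lower in skin, beside 218 of all 4439 compared genes. The 15 T cell identity genes had medians of -0.38, -0.31, 0.03 and -0.42, with 2 genes lower in lymph node and none called in the other tissues. Cd8a stood at 1068 CPM in core-high cells of skin, 559 in the lung, 856 in the liver and 1213 in the lymph node, against 1404, 693, 764 and 1783 CPM in the other cells.

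Biosynthetic lists were higher before weighting, and not all of them after it. Nucleotide synthesis genes had medians of 0.41 in the skin, 0.44 in the lung, 0.37 in the liver and 0.38 in the lymph node. After weighting these were 0.56, 0.40, 0.46 and 0.56. Before weighting 8, 6, 5 and 6 of the 23 genes were higher, beside 13.3%, 7.1%, 8.06% and 8.4% of all compared genes. Impdh2, the rate-limiting enzyme of guanine nucleotide synthesis, had ratios of 2.29 [1.65 to 3.11], 2.24 [1.65 to 2.98], 2.74 [1.60 to 4.46] and 2.76 [1.58 to 4.52] in skin, lung, liver and lymph node. Slc29a1, a nucleoside transporter gene that is not on that list, had ratios of 5.98, 5.25, 5.25 and 6.00. Proteasome subunit genes were higher in 17, 5, 7 and 13 of 37 genes, beside 13.3%, 7.1%, 8.06% and 8.4% of all compared genes, and lower in none, with medians of 0.55, 0.24, 0.38 and 0.55 and depth-weighted medians of 0.28, 0.23, 0.07 and 0.37. Oxidative phosphorylation genes had medians of 0.48, 0.18, 0.29 and 0.29 and glycolysis genes 0.39, 0.15, 0.15 and 0.40. After weighting the glycolysis medians were -0.11, -0.00, -0.22 and 0.47, so the direction held in lymph node alone.

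**Figure D4:**
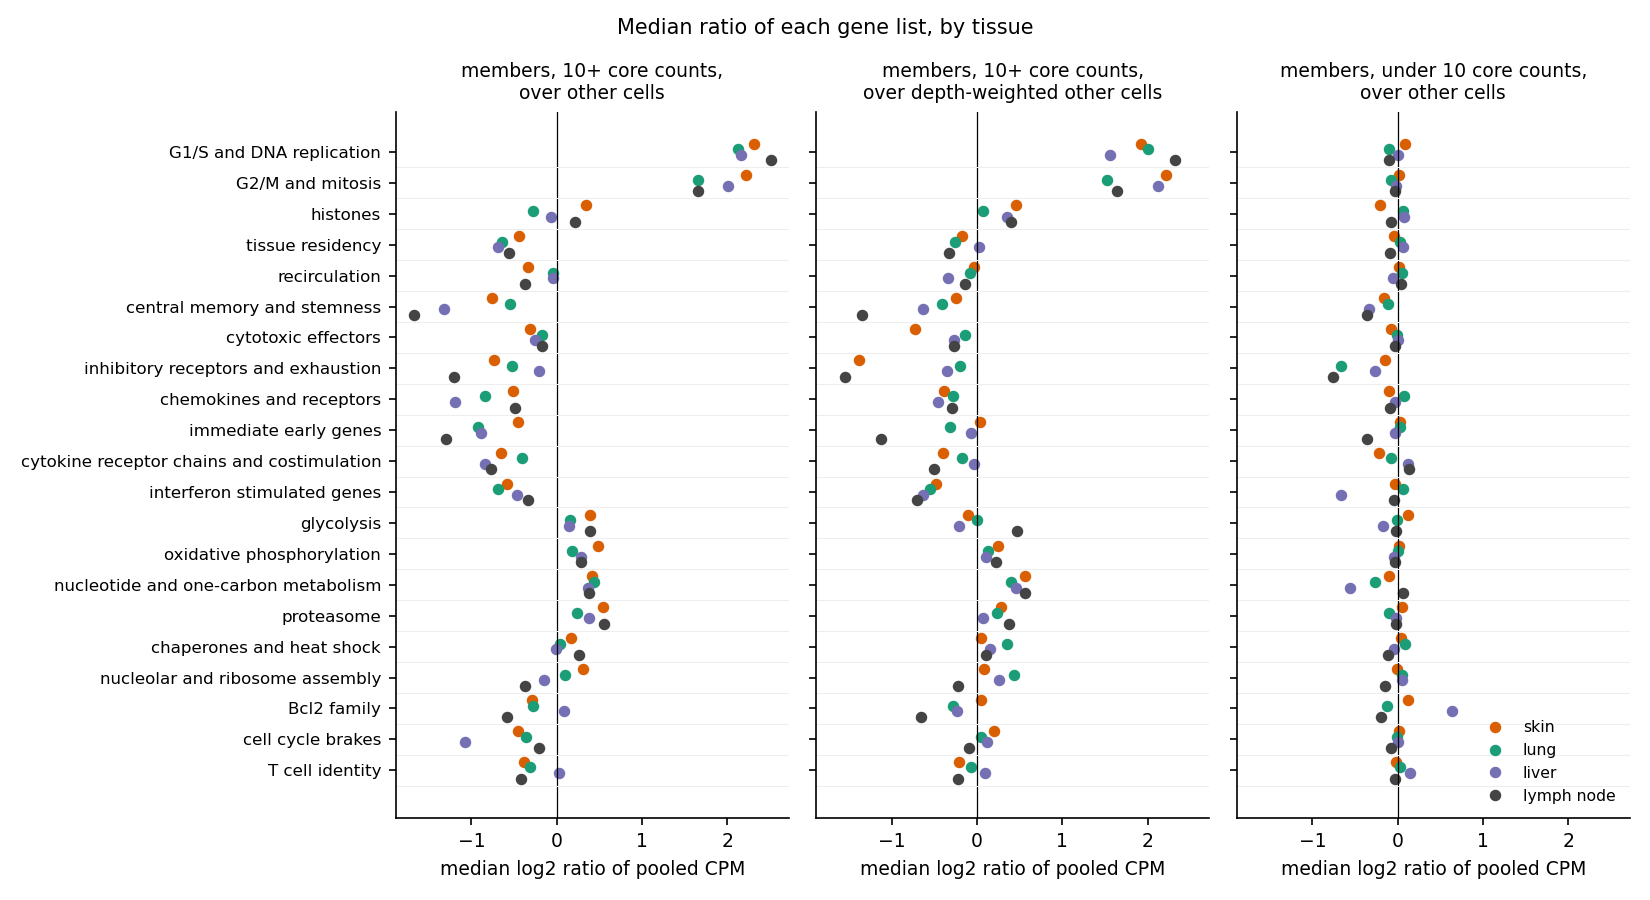
Median log2 ratio of pooled CPM (x axis) of each gene list (y axis) in the 4 tissues, for core-high members (Mki67 or Top2a positive cells) over other cells, the same over depth-weighted other cells, and core-low members over other cells. Replication and mitosis lists stand at 1.65 to 2.51 in the left panel, and most medians of core-low cells lie near 0.

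More brakes of the cell cycle were lower than higher in every tissue before weighting, although Cdkn1a and Cdkn2a stood higher. Cdkn1a, which encodes the inhibitor p21, stood at 975 CPM in core-high skin cells, 97.4 in the lung, 125 in the liver and 85.3 in the lymph node, against 538, 49.3, 67.9 and 14.6 CPM in the other cells. Its ratios were 1.81 [1.57 to 2.08], 1.98 [1.38 to 2.76], 1.83 [1.01 to 3.10] and 5.85 [2.55 to 11.9]. Of the 9 lymph node counts 5 came from 1 cell. Cdkn2a, the locus of the inhibitors p16 and p19Arf, had ratios of 10.2 [6.94 to 14.9] in skin, 3.66 [2.54 to 5.17] in lung, 5.11 [1.96 to 12] in liver and 7.61 [3.08 to 16.4] in lymph node, and 2.67, 1.04, 2.40 and 4.51 against depth-weighted cells. Over the list of 20 brakes, 5 genes were lower and 2 higher in skin, 5 and 2 in lung, 6 and 3 in liver and 4 and 2 in lymph node. Of all compared genes 7.14% were lower and 13.3% higher in skin, 10.1% and 7.1% in lung, 4.82% and 8.06% in liver and 4.26% and 8.4% in lymph node, so 2 higher of 20 brakes is near the share of all genes. E2f2, a transcription factor of the G1/S wave, had ratios of 7.41, 1.72, 2.76 and 9.97 in the 4 tissues.

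Differences between tissues within the selected cells can be set beside those within the other cells. Each comparison with lymph node uses the same lymph node cells of its kind, so values are given side by side. The immediate early list had a median log2 ratio of skin over lymph node of 3.32 in the positive cells and 2.86 in the other cells. The residency list had a median of 1.36 in positive and 1.09 in other cells for skin over lymph node, and -0.84 and -0.79 for lung over lymph node. The recirculation list had a median of 1.13 in positive and 1.16 in other cells for lung over lymph node, and 1.15 and 1.24 for liver over lymph node. Interferon stimulated genes had medians of -1.64 in positive and -1.61 in other cells for skin over lymph node. In the core-high cells these 6 medians were 3.45, 1.10, -0.72, 1.06, 0.90 and -1.54 in the order of this paragraph. Some other list medians stood on opposite sides of 0 in core-high and in other cells, and examples follow. Medians over all compared genes were not all at 0 either. For liver over lymph node the all-gene median was -0.28 in core-high and -0.30 in other cells. It was -0.26 and -0.23 for lung over lymph node, and 0.0006 and -0.16 for skin over lymph node. The residency list for liver over lymph node was at 0.10 in core-high and -0.18 in all positive cells, against -0.41 in the other cells. For lung over lymph node the chemokine and receptor list was at 0.36 in core-high and -0.84 in all positive cells, against -0.75 in the other cells. The central memory and stemness list for skin over lymph node was at 0.32 in core-high and -0.18 in all positive cells, against -0.52 in the other cells. The brakes for liver over lymph node were at -0.39 in core-high and -0.17 in all positive cells, against 0.19 in the other cells. Their core-high value stood near the all-gene median. Further lists changed sides as well, such as T cell identity for liver over lymph node, at 0.11 in core-high and -0.27 in other cells.

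Single genes of tissue identity showed some of the same tissue differences in core-high and in other cells. For Klf2 and Gzma the order of skin and lymph node was reversed between these sets. Klf2, a factor that keeps T cells in circulation, was counted in 8.7% of core-high cells of skin, 73.1% in lung, 93.8% in liver and none of 17 in lymph node at 1886 counts per cell, against 17.1%, 80.2%, 84.3% and 23.5% of the other cells. Itgae, the CD103 integrin chain that binds E-cadherin, was counted in 56.5% of core-high cells of skin, 28.8% in the lung, 12.5% in the liver and 52.9% in the lymph node, against 63.5%, 28.7%, 26.2% and 49.7%. Cxcr6, a chemokine receptor of resident cells, was counted in 76.1%, 65.4%, 62.5% and 94.1% of core-high cells in the same order, against 84.6%, 85.0%, 77.9% and 89.4%. Gzma, the granzyme A gene, was counted in 23.9% of core-high cells of skin, 100% in the lung, 93.8% in the liver and 47.1% in the lymph node, against 28.1%, 91.5%, 84.9% and 18.0%. The liver and lymph node values of core-high cells rest on 16 and 17 cells.

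**Figure D5:**
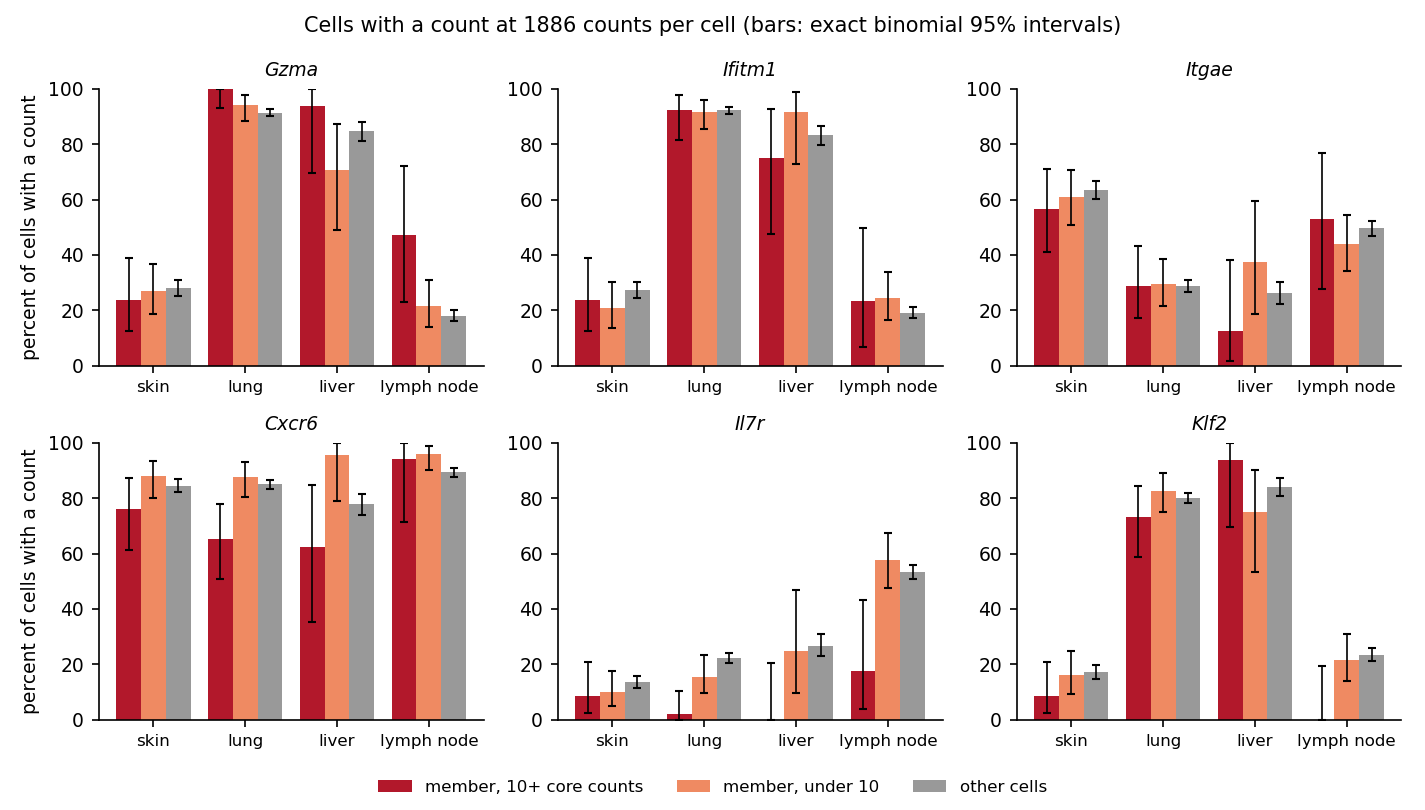
Percent of cells with a count (y axis) of 6 genes in each tissue after thinning every cell to 1886 counts, for core-high, core-low (both members, the Mki67 or Top2a positive cells) and other cells, with exact binomial 95% intervals. Gzma and Ifitm1 are high in lung and liver in the 3 sets. For Gzma, core-high cells stand higher in lymph node than in skin, the reverse of the other cells. Il7r is lower in core-high cells than in other cells of lung, liver and lymph node.

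Pooled levels of Gzma and Ifitm1 stood lower in the positive cells of skin and higher in those of lymph node. Gzma stood at 728 CPM in the positive cells of skin and 1165 CPM in those of lymph node, against 1538 and 644 CPM in the other cells. In lymph node 35.4% of the Gzma counts of the positive cells came from 1 cell, and the ratio was 1.81 [1.64 to 1.99] with that cell and 1.19 [1.06 to 1.34] without it. Ifitm1, an interferon-inducible gene, stood at 750 CPM in the positive cells of skin and 1625 CPM in those of lymph node, against 1248 and 765 CPM in the other cells. Its ratio in lymph node was 2.13 [1.95 to 2.31], and 1.87 [1.71 to 2.05] without the cell with most counts. Counts within a cell are not independent, so these intervals are narrower than the spread between cells.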

How the data were processed

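Single-cell RNA sequencing of CD8+Thy1.1+ Pmel T cells from 4 tissues was analysed from 1 table of counts that the authors deposited, covering 9223 genes in 5727 cells. Bowtie, RSEM and mm10 are named in the submitters' processing notes. Neither the use of unique molecular identifiers nor the filters on cells and genes are given in the sources used here. The 16 samples are 4 lanes of 4 tissues, and the table names cells by tissue only, so each tissue is 1 library and 0 columns lacked a tissue.

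Cells with at least 1 count of Mki67 or Top2a were compared with the other cells of their tissue. The members, gene lists and core genes were chosen with earlier results of these data known. Counts were pooled and divided by the pooled total of all listed genes (CPM). Ratios carry exact conditional binomial 95% intervals and shares Clopper-Pearson intervals, both for counting error only. Genes needed 20 CPM over all cells, and a gene at 0 was set at a floor of 3 counts over the group or ranked lowest in a list median. A shared gene had a ratio of 1.5 or more the same way in 4 tissues and an interval without 1 in at least 3.

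Named genes were up to 12 shared genes each way with the largest mean log2 ratio and up to 4 further genes each way per tissue by the interval bound farthest from 1, with at least 50 CPM, a count in 10% of cells and at most 20% of counts from 1 cell. Genes of the lists could also be named. Thinning drew 1886 counts per cell, the 10th percentile. Depth weighting used 20 bins of counts per cell. Summed pooled CPM cannot tell fewer expressing cells from less RNA per cell. The ratio procedure was tested on simulated data. Python 3.11.15, numpy 2.4.6, pandas 2.3.3, scipy 1.17.1 and scanpy 1.11.5 were used. Reads of near-identical genes, such as Hspa1a and Hspa1b, may have been split by the authors' quantification. Alternatives for depth, scaling, filters, doublets and the rule are given with the closing results.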

Additional observations from a re-analysis of the deposited data

Results flagged for a closer look

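Of the genes named for the Mki67 or Top2a positive cells, 4 were called higher in 1 tissue and lower in another. Such opposite calls numbered 5 among the compared genes, of which 4439 lie outside the cell cycle list. The differences between tissues were not tested, since each tissue is 1 library.

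Gzma had a ratio of positive over other cells of 0.474 in skin and 1.81 in lymph node. The lymph node ratio was 1.19 without the cell with most counts, and 1.10 against depth-weighted cells. Ifitm1 had a ratio of 0.601 in skin and 2.13 in lymph node, which was 1.87 without the cell with most counts.

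Hspa1a, a stress-induced HSP70 gene, had a ratio of 0.595 in skin, 0.364 in liver and 1.80 in lymph node. The lymph node counts came from core-low cells alone, since core-high cells had none. Without the cell with most counts the lymph node ratio was 1.5.

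Ppid, a cyclophilin gene, had a ratio of 1.86 in skin, where 23 counts were seen, and 0.326 in lymph node, where 7 were. Without the cell with most counts the skin ratio was 1.63 [0.93 to 2.74].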

How the results depend on the processing

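No paired analysis was possible because each tissue is 1 library and the table carries no replicate. The share of positive cells in skin, lung, liver and lymph node was 13.1%, 7.88%, 7.19% and 7.88%. Thinned cells gave 10.2%, 4.78%, 5.29% and 5.42%. At least 2 counts gave 4.41%, 1.85%, 1.98% and 1.42%. Counts of both genes gave 2.53%, 1.08%, 1.26% and 0.677%. Every cell with Mki67, with or without Top2a, gave 5.07%, 2.50%, 2.88% and 2.40%. Every cell with Top2a, with or without Mki67, gave 10.5%, 6.46%, 5.58% and 6.15%. Positive cells with at least 10 core counts, a rule added after seeing the data, gave 3.84%, 2.24%, 2.88% and 1.11%. Skin was highest under each of these rules and without doublets.

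The 15 genes higher in all 4 tissues became 9 against depth-weighted cells, 106 with at least 2 counts of the rule genes, 5 with the mean over cells, 5 at 50 CPM, 35 without a filter, 122 in core-high cells, 0 in core-low cells and 73 in core-high against depth-weighted cells. Leaving out 1 tissue gave 16 to 57, with 57 without lymph node and 25 without lung. The 1 lower gene became 2 under median-of-ratios scaling, without doublets and with the mean over cells, 18 with at least 2 counts, 40 in core-high cells, 0 in core-low cells and 3 in core-high against depth-weighted cells. Leaving out 1 tissue gave 2 (without liver) to 8 (without lymph node), with 7 without skin and 4 without lung.

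For the positive cells, 5 list medians from lists with 1 sign and at least 0.1 in all 4 tissues, and 1 called gene ratio, changed sign, and the cause was not tested. The residency median in liver became 0.10 against depth-weighted cells and 0.016 with the mean over cells. The immediate early median became 0.054 in skin and 0.021 in liver against depth-weighted cells. The nucleotide synthesis median in lung became -0.065 with the mean over cells, and the log2 ratio of Cdkn2a in lung became -0.066 against depth-weighted cells. A further 46 list medians and 62 gene ratios that were not called changed sign, and the other 705 and 1700 kept it.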
